A study of Mus musculus with 6 samples.

Results

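The replication-dependent histone genes are the clustered genes that supply most histone protein when a cell copies its DNA, and they were taken as every gene in the table whose name starts with Hist1h, Hist2h, Hist3h or Hist4h. The rule found 66 of the 21686 genes in the table and used no measured value. RNA sequencing was performed on MC3T3-E1 Subclone 14 cells, a clonal line of mouse calvarial preosteoblasts, in a study of steroid injury to bone cells and of extracellular vesicles released by endothelial progenitor cells (EPC-EVs, labelled EPCs-exo). Cells of the control group received 100 µL PBS, those of the dexamethasone group 10 µM dexamethasone, a synthetic glucocorticoid, and those of the dexamethasone + EPC-EVs group 10 µM dexamethasone together with 100 µg EPC-EVs, each for 72 hours. The design text of the series names fibroblasts, a shorter time and no control, and the sample labels and the study's methods were followed here. The 100 µg of EPC-EVs is the amount in the study's methods, while parts of its results name a smaller amount for this group. There were 2 libraries in each of the 3 groups and 1 dose of each agent, so no dose series could be described and no group received EPC-EVs alone. Summed over all genes, the table held 6126888 (replicate 1) and 5146760 (replicate 2) counts for control, 6583735 and 6575094 for dexamethasone, and 12864009 and 13182014 for dexamethasone + EPC-EVs. Values listed per library below keep this order. At these depths 3 counts, the limit that a count of 0 allows, corresponded to between 0.228 and 0.583 CPM. Reads were not marked by molecular identifiers, so this floor and all counting intervals cover counting error only. The study describes the libraries of a group as biological replicates, while the labels do not state separate cultures, and p-values measure the spread between these libraries.

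Nucleosomes are built from the core histones H2A, H2B, H3 and H4, and the linker histone H1 binds the DNA between them. Replication-dependent histone genes are transcribed mainly in S phase, lack introns in most cases, and give mRNAs that end in a conserved stem-loop in place of a poly(A) tail. The stem-loop is bound by the stem-loop binding protein SLBP, cut with the help of the U7 small nuclear RNP, and used for rapid decay when DNA synthesis stops. Some of these genes also give polyadenylated mRNAs, which are known from differentiating and non-dividing cells. A library made after poly(A) selection recovers RNAs without a tail poorly, whereas ribosomal RNA depletion retains them. Which of these was used here is not given in the sources used here.

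By class the members were 6 H1, 19 H2A, 17 H2B, 11 H3 and 13 H4 genes. In GRCm38 coordinates, 55 carry Hist1 names and lay on chromosome 13, 8 lay in the Hist2 cluster on chromosome 3 (chr3:96219865-96270132), 2 in Hist3 on chromosome 11 and 1, Hist4h4, on chromosome 6. Of the Hist1 genes, Hist1h2al (chr13:51202727-51203065) lay far from all others, the nearest of which was Hist1h2aa (chr13:23934462-23934851). GENCODE vM21 annotates 63 of them as protein coding, 2 as processed pseudogenes and 1 as an unprocessed pseudogene. The median GC content of the members was 58.3% against 49.5% over all genes, and their median length 529 bases against 3055. Many members share sequence: of all 100-base words in a member's transcript, a median of 66.5% occurred in no other gene, and in 24 members fewer than 50% did. The split of reads among these 24 genes is uncertain. A further uncertainty concerns the 24 members that overlap another annotated gene, 5 of them on the same strand, because the strand setting of the read counting is not given in the sources used here.

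The annotated transcripts of 43 members (65.2%) held a histone stem-loop, compared with 0.155% of the 55450 genes in the annotation. Among the other genes with such a sequence was H2afx, a replacement histone gene. The 16-base loop took few forms: 23 members shared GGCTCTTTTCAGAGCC, 7 H4 genes shared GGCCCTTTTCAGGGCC and 6 members shared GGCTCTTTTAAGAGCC. These and rarer forms are shown for 6 members described further on, from the sense strand of the GENCODE vM21 transcript, with the stem-loop in capitals and 5 bases on each side.
Hist1h1c: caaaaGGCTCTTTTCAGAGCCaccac
Hist2h2ac: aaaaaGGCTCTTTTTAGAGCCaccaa
Hist1h3c: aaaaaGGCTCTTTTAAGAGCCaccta
Hist2h4: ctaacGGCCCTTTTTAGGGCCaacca
Hist1h4d: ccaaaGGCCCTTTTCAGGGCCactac
Hist1h4b: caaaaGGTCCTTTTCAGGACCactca
The genes lie at chr13:23738808-23740367 (+), chr3:96220361-96220880 (-), chr13:23744973-23745602 (-), chr3:96261682-96263311 (-), chr13:23581598-23582735 (+) and chr13:23757013-23757409 (+), in the same order. Annotated transcripts of 22 members ended within 100 bases of the loop, as the processed mRNA does, while those of 21 members ran on for more than 100 bases, and those of 23 members held no loop. For Hist1h1c the annotation continued for 840 bases past the loop and included a poly(A) signal, and for Hist2h4 it continued for 1257 bases.

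The promoters of the members were compared because several classes are known for a motif of their own. RefSeq (GRCm38.p6) gave a start for 56 members, and the 250 bases upstream were searched on both strands. The octamer ATTTGCAT was found in 7 of 16 H2A and 5 of 13 H2B promoters, in none of 6 H1, 9 H3 and 12 H4 promoters, and in 1.60% of 32851 promoters of all genes. CCAAT was found in 6 of 6 H1, 16 of 16 H2A, 13 of 13 H2B, 8 of 9 H3 and 3 of 12 H4 promoters, against 33.8% of all. Several H2A and H2B genes lie on opposite strands with overlapping windows, such as Hist1h2ae with Hist1h2bg and Hist1h2ah with Hist1h2bk. The same match can therefore be counted in both classes, and their promoters are not all separate. The letters AAACACA, known as the H1 box, were present in 5 of 6 H1 promoters (6.25% of all) and the H4 motif GGTCCG in 9 of 12 H4 promoters (6.72% of all). The TATA letters TATAAA were present in 4 of 6 H1, 7 of 16 H2A, 6 of 13 H2B, 4 of 9 H3 and 6 of 12 H4 promoters, compared with 12.4% of all. For each class with its own motif, the member with the highest counts among those holding it within 140 bases of the RefSeq start is shown, as these 140 bases, 5′ to 3′ on the strand of the gene, with the class motif and CCAAT (or their reverse complements) in capitals.
Hist1h1e promoter: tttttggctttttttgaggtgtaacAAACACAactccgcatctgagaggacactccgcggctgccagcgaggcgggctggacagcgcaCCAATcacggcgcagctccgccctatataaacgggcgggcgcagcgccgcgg
Hist1h2ab promoter: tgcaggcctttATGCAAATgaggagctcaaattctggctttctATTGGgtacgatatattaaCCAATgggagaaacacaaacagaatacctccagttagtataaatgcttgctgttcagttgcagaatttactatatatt
Hist1h2bb promoter: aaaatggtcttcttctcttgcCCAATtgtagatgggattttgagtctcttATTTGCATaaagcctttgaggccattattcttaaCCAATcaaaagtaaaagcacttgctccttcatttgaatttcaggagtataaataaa
Hist1h4d promoter: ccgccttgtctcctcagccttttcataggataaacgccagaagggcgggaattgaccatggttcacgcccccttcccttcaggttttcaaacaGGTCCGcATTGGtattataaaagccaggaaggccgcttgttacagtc
These windows are chr13:23622559-23622698 (-), chr13:23750948-23751087 (+), chr13:23746594-23746733 (+) and chr13:23581428-23581567 (+). A match describes the letters in the window and is not evidence of a bound factor.

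Summed over all 66 members, histone genes held 4907 and 2655 counts in control, 5192 and 4833 in dexamethasone, and 27640 and 17917 in dexamethasone + EPC-EVs. As a share of each library this was 0.0801% and 0.0516% in control, 0.0789% and 0.0735% in dexamethasone, and 0.215% and 0.136% in dexamethasone + EPC-EVs. Both dexamethasone + EPC-EVs libraries lay above the other 4, which overlapped, and the 2 libraries of that group differed widely from each other. The group means were 0.0658% ± 0.0202 (SD, n = 2) in control, 0.0762% ± 0.00379 (SD, n = 2) in dexamethasone and 0.175% ± 0.0558 (SD, n = 2) in dexamethasone + EPC-EVs. The mean share in dexamethasone + EPC-EVs was 2.30-fold that in dexamethasone, with a range of 1.78 to 2.82 when each library was left out in turn. Against control it was 2.66-fold, with a range of 2.06 to 3.40. Dexamethasone against control gave 1.16-fold, which turned to 0.951-fold without control 2 and rose to 1.48-fold without control 1, so its direction depended on 1 library. In these bulk samples, more cells in S phase and more histone RNA per cell cannot be told apart.

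**Figure D1:**
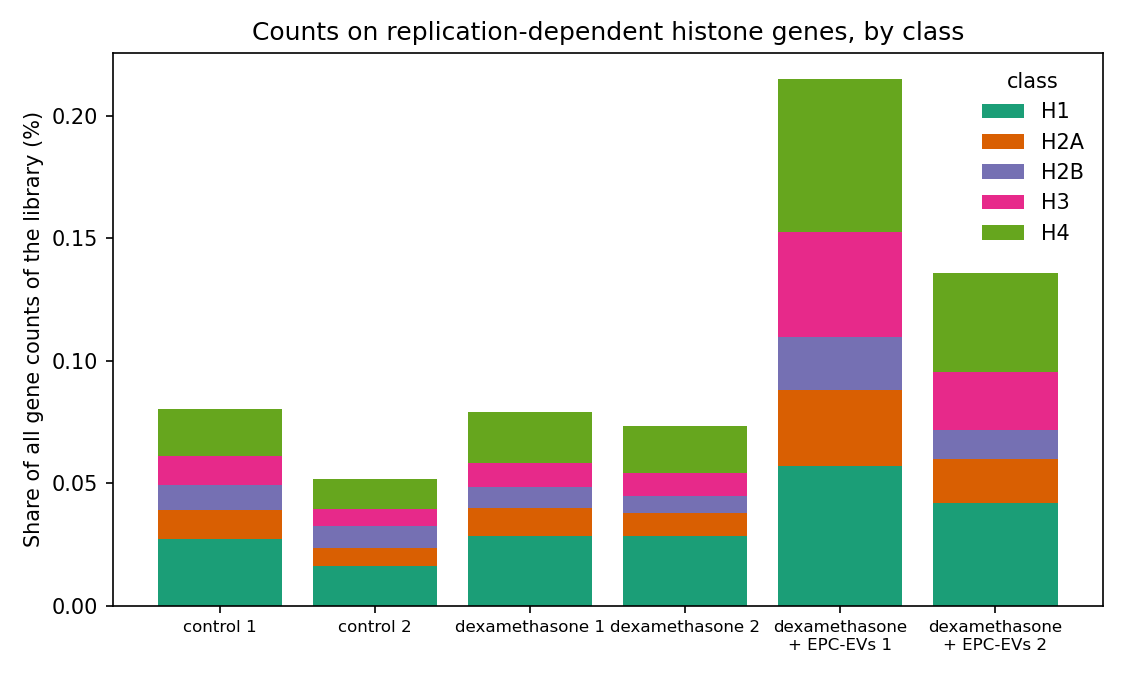
Stacked bars show the share of all gene counts (percent, y axis) on the 66 histone genes in each of the 6 libraries (x axis), divided into the classes H1, H2A, H2B, H3 and H4. The dexamethasone + EPC-EVs libraries reach 0.215% and 0.136%, and the other 4 libraries lie between 0.0516% and 0.0801%.

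In all 5 classes the dexamethasone + EPC-EVs libraries held the highest shares, though not to the same extent. The share in dexamethasone + EPC-EVs over that in dexamethasone was 1.75-fold for H1, 2.33-fold for H2A, 2.14-fold for H2B, 3.47-fold for H3 and 2.58-fold for H4. H1 genes made up 34.1% and 31.1% of the histone counts in control, 35.9% and 38.5% in dexamethasone, and 26.5% and 30.8% in dexamethasone + EPC-EVs. H3 genes made up 15.0% and 13.1%, 12.6% and 12.6%, and 20.1% and 17.4% in the same order. The H1 fraction was thus lowest, and the H3 fraction highest, in the dexamethasone + EPC-EVs libraries, without overlap with the other groups. By position, the share of the Hist2 cluster in dexamethasone + EPC-EVs was 3.80-fold that in dexamethasone and that of the Hist1 genes 2.104-fold. The 2 genes of Hist3 had few counts (23 and 29, 13 and 28, and 31 and 19), with shares that overlapped between dexamethasone and dexamethasone + EPC-EVs. Counts were concentrated in few genes: Hist2h4, Hist1h1c, Hist1h1e, Hist1h1d and Hist1h4d together held 47.4% and 46.0% of histone counts in control, 52.1% and 52.7% in dexamethasone, and 38.7% and 45.8% in dexamethasone + EPC-EVs.

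The 2 libraries of control, and those of dexamethasone + EPC-EVs, differed in a manner that most members shared. Among the 39 members with a mean of at least 5 CPM, 39 were higher in replicate 1 than in replicate 2 of dexamethasone + EPC-EVs, with a median log2 difference of 0.72, while over 10638 genes at that level the median was -0.01. In control, 34 of the 39 were higher in replicate 1, with a median of 0.55 against 0.04 over all genes. In dexamethasone, 24 of 39 were higher in replicate 1, with a median of 0.05 against 0.00 over all genes, so that no such difference was seen there.

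Several other features of the libraries moved with the groups, and their part in the histone values was not tested. The 13 mitochondrially encoded genes held 7.46% and 8.62% of counts in control, 5.55% and 5.78% in dexamethasone, and 0.465% and 0.727% in dexamethasone + EPC-EVs. Leaving these genes out of the totals gave a 2.18-fold histone share in dexamethasone + EPC-EVs over dexamethasone. The gene with the most counts was mt-Co1 in the control and dexamethasone libraries. In both dexamethasone + EPC-EVs libraries Gm26917, a long noncoding RNA gene, had the most counts. Depth was also highest in that group, as given above.

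Markers of the labelled cell type were present. All 10 osteoblast markers were detected, and together they held 1.50% and 1.63% of counts in control, 1.67% and 1.70% in dexamethasone, and 2.63% and 2.02% in dexamethasone + EPC-EVs. The most abundant on the FPKM scale was Spp1, which encodes the matrix protein osteopontin, at 6232, 6701, 6769, 6625, 3635 and 2583. Some markers, named after their values were seen, had low counts: Alpl, alkaline phosphatase, had 11, 16, 5, 0, 17 and 6 counts and Ibsp, bone sialoprotein, 2, 12, 5, 4, 26 and 6. Runx2, the transcription factor of the osteoblast lineage, had 1242, 904, 1046, 1130, 2392 and 2326 counts.

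Levels of different members can be compared only per length, on the FPKM that the authors deposited. The mean FPKM over the 6 libraries ranged from 0.0649 to 143.6 among the members, with a median of 10.0 against 1.77 over all genes in the table. Of the 66 members, 46 had at least 1 count in all 6 libraries, 39 reached a mean of 5 CPM and 10 lay under 1 CPM. Hist1h2al and Hist1h4m had 0 counts in all control and dexamethasone libraries. Over the mean of the 6 libraries the class medians were 29.2 FPKM for H1, 22.9 each for H3 and H4, 6.62 for H2B and 4.68 for H2A. The order differed between groups: the H1 median was 17.8 and 8.63 in control, 19.4 and 18.4 in dexamethasone, and 33.7 and 28.4 in dexamethasone + EPC-EVs, and the H4 median was 12.9 and 7.23, 6.30 and 11.7, and 55.6 and 30.7. H1 was thus the highest of all classes in each control and dexamethasone library, and H4 in both dexamethasone + EPC-EVs libraries.

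Dexamethasone was compared with control to ask whether the steroid alone altered histone RNA. Calls were made with the quasi-likelihood test of edgeR, at a p under 0.05 after Benjamini-Hochberg adjustment. No member was called by edgeR: 0 of the 46 members that passed the filter on low counts, 0 at an unadjusted p under 0.05, 0 by DESeq2 and 0 by limma. Calls were rare in this comparison, with 7 of 12879 genes (0.0544%) called. Without the filter 64 members had counts and 0 were called, beside 1.26% of all genes. At an unadjusted p under 0.05 there were then 1 higher and 2 lower, beside 976 higher and 881 lower of 19711 genes. The median log2 fold change of the 46 was 0.08, against 0.01 over all genes tested. On CPM, the 4 libraries did not overlap for 19 members, 12 higher and 7 lower in dexamethasone, against 21.9% higher and 13.9% lower of all genes with counts. Leaving out control 1 gave a median of 0.52, whereas without control 2 or without dexamethasone 1 the median was -0.16 or -0.12.

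Adding EPC-EVs to dexamethasone was compared with dexamethasone alone to ask what the vesicles changed. Of the 66 members, 57 passed the filter: 36 were called higher, 1 was called lower (Hist1h1e) and 20 were not called. Of all genes tested, 20.9% were called higher and 18.9% lower. The members' median log2 fold change was 1.64, against 0.01 over all genes tested. DESeq2 called 33 higher and 1 lower, limma on log2(FPKM + 1) 37 higher and 1 lower, and at an unadjusted p under 0.05 edgeR gave 41 higher and 1 lower. With no filter, all 66 members could be tested, and 40 were called higher and 1 lower, beside 15.0% and 12.2% of all genes, with a median of 1.72 against 0.09. On CPM, the groups did not overlap for 47 members, 46 higher and 1 lower, while 27.9% of all genes lay higher and 28.0% lower. Without dexamethasone + EPC-EVs 1 fewer members were called, with a median of 1.31, and the share of all genes called in that fit is not given here. The 9 members that did not pass the filter were Hist1h1t, Hist1h2aa, Hist1h2al, Hist1h2ao, Hist1h2bp, Hist1h2br, Hist2h2bb, Hist3h2bb-ps and Hist1h4m.

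**Figure D2:**
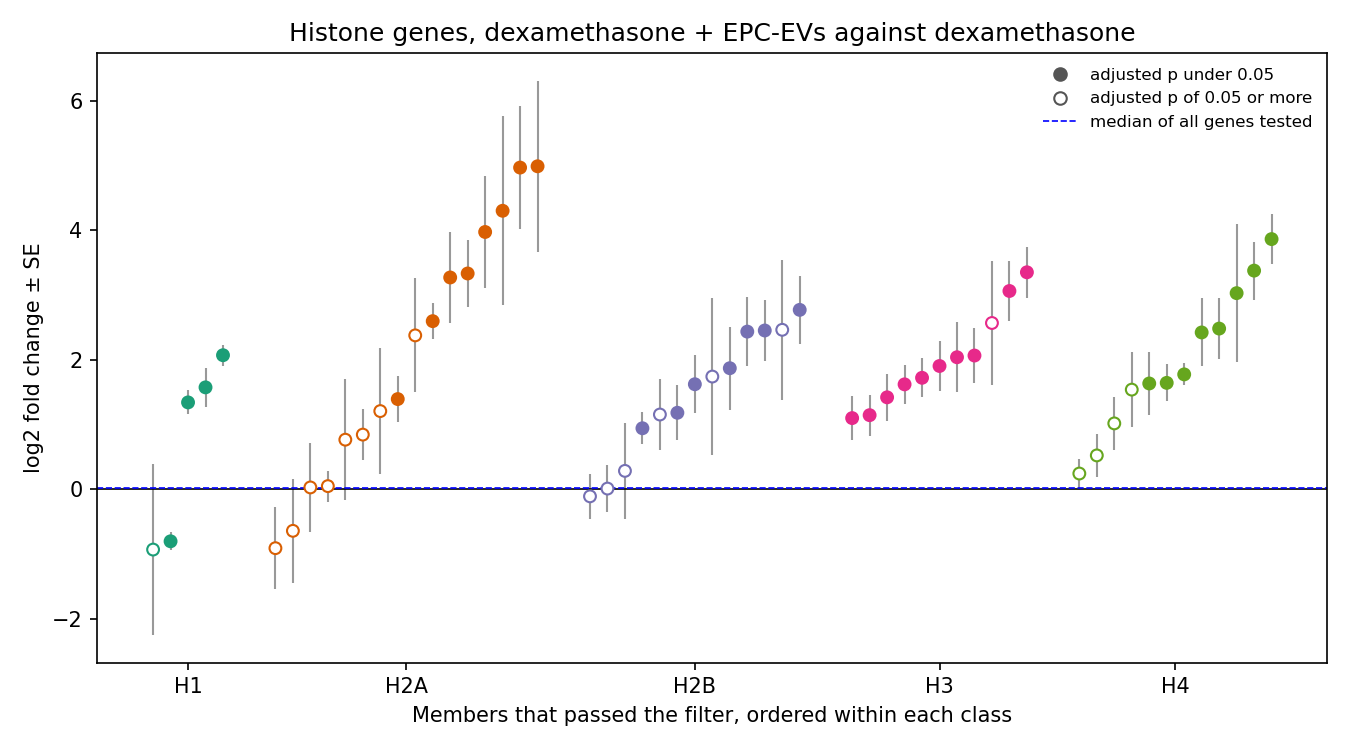
Each point is the log2 fold change of a member in dexamethasone + EPC-EVs against dexamethasone (y axis, edgeR, bars ± SE), for the 57 members that passed the filter, ordered within each class (x axis); filled points have an adjusted p under 0.05 and the dashed line is the median of all genes tested. Filled points lie above 0 in every class except for Hist1h1e, at -0.81.

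Every class had called members, beside 20.9% called higher and 18.9% called lower of all genes tested. Among H1 genes 3 were called higher and 1 lower of 5 tested (6 in all), with a median of 1.34. Of the H2A genes 8 of 16 tested (19 in all) were called higher, with a median of 1.88, and of the H2B genes 7 of 13 tested (17 in all), with a median of 1.62. Of the H3 genes 10 of 11 were called higher, with a median of 1.90, and 8 of 12 tested H4 genes (13 in all) were called higher, with a median of 1.71. With a trend on length and GC removed from the counts, the H3 calls fell to 5 of 11 (median 1.05), while H1 gave 3 higher and 1 lower of 5 (median 1.01), H2A 7 higher and 2 lower of 16 (median 0.97), H2B 4 of 13 (median 0.90) and H4 5 of 12 (median 1.16). Of all genes tested with this trend removed, 16.0% were called higher and 15.8% lower. With no filter the counts were 3 higher and 1 lower of 6 H1, 8 of 19 H2A, 9 of 17 H2B, 11 of 11 H3 and 9 of 13 H4 genes. Of all genes with no filter, 15.0% were called higher and 12.2% lower. Differences between classes were not tested, and their order by calls depended on the removal of the length and GC trend.

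Linker histone genes moved in opposite directions. Hist1h1e (ENSMUSG00000051627.3, chr13:23620629-23622558), the H1 gene with the highest FPKM in control, stood at 72.1 and 50.3 FPKM in control, 76.8 and 81.3 in dexamethasone, and 45.8 and 41.8 in dexamethasone + EPC-EVs. Both dexamethasone + EPC-EVs libraries lay below the other 4. It fell by 0.81 on the log2 scale against dexamethasone (SE 0.14, edgeR adjusted p = 0.000955), a smaller change than the study's fold threshold. Its last 496 bases overlap Hist1h2be on the same strand, so its counts are uncertain. Hist1h1c (ENSMUSG00000036181.2), a linker histone gene widely expressed in non-dividing cells too, stood at 26.9 and 17.8 FPKM in control, 35.2 and 29.5 in dexamethasone, and 146 and 117 in dexamethasone + EPC-EVs. Dexamethasone lay slightly above control, and both lay far below dexamethasone + EPC-EVs. The rise against dexamethasone was 2.07 (log2, SE 0.17, edgeR adjusted p = 5.03e-06). Hist1h1d (ENSMUSG00000052565.7, chr13:23553262-23560686) stood at 8.77 and 3.14, 7.59 and 7.31, and 21.6 and 15.0 FPKM in the same order of groups. The dexamethasone + EPC-EVs libraries were again highest, with a rise of 1.34 (log2, SE 0.18, edgeR adjusted p = 0.000189). Hist1h1b, whose counts were 150 and 54, 153 and 148, and 1157 and 558, was chosen here after its values were seen because it completes the called H1 genes, and it rose by 1.57 (log2, SE 0.31). Hist1h1a was not called, with 15, 9, 0, 23, 15 and 8 counts.

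**Figure D3:**
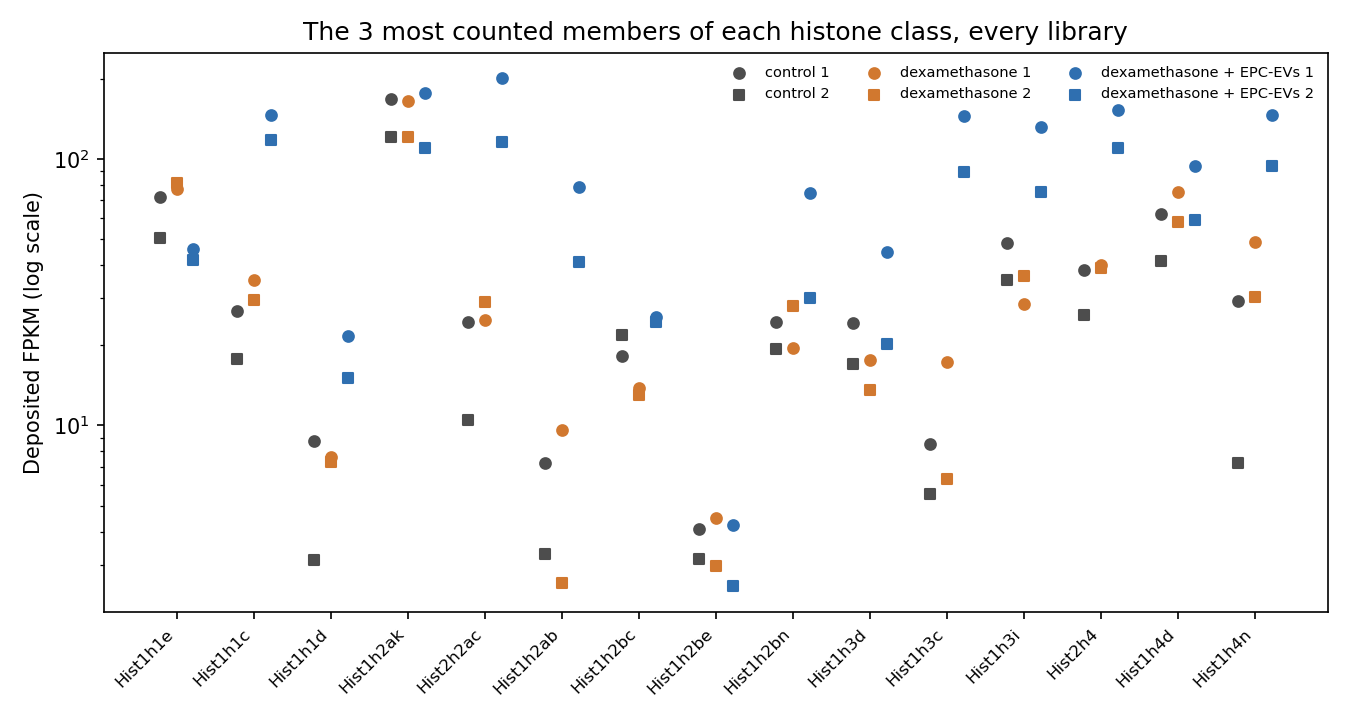
Deposited FPKM (y axis, log scale) in each of the 6 libraries for the 3 members of each class with the highest mean CPM (x axis), circles for replicate 1 and squares for replicate 2, coloured by group. Hist1h1e is lowest in dexamethasone + EPC-EVs, the groups overlap for Hist1h2ak, Hist1h2be and Hist1h4d, and the dexamethasone + EPC-EVs libraries lie above dexamethasone for the other 11 members.

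H2A genes encode a core histone of the nucleosome that pairs with H2B. Hist1h2ak (ENSMUSG00000063021.3, chr13:21753435-21753827) had the highest mean FPKM over the 6 libraries, at 167 and 121 in control, 165 and 121 in dexamethasone, and 176 and 110.2 in dexamethasone + EPC-EVs. Hist1h2ak was the highest member in each control and dexamethasone library, but not in either dexamethasone + EPC-EVs library. Its groups overlapped, and its log2 fold change against dexamethasone was 0.05 (SE 0.24, not called), with values of -0.02 by limma and -1.77 after removal of a trend on length and GC. Hist2h2ac (ENSMUSG00000068855.3) stood at 24.5 and 10.5, 24.8 and 29.0, and 200.5 and 115 FPKM. Both dexamethasone + EPC-EVs libraries exceeded all others by a wide margin, with a rise of 2.60 (log2, SE 0.27, edgeR adjusted p = 3.00e-05). Hist1h2ab (ENSMUSG00000061615.2, chr13:23751126-23751598) stood at 7.25 and 3.29, 9.63 and 2.57, and 78.7 and 41.1 FPKM. Its control and dexamethasone libraries overlapped, and those with EPC-EVs were higher by 3.33 (log2, SE 0.51, edgeR adjusted p = 0.000397), although 47.6% of its 100-base words are unique.

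Among the called members that passed the filter, 4 of the 5 largest fitted rises against dexamethasone belonged to H2A genes with few counts in that group. With at most 1 count in each dexamethasone library, Hist1h2ad, Hist1h2ah and Hist2h2ab passed the filter through their counts in other libraries, and their place among the largest rises rests on this. Hist1h2ad had 14 and 0 counts in control, 0 and 1 in dexamethasone, and 42 and 29 in dexamethasone + EPC-EVs. The ratio of CPM to dexamethasone was 35.9, with a 95% counting interval from 6.23 to 1437, and the call (log2 fold change 4.99) was lost without dexamethasone 1 (edgeR adjusted p = 0.0624) or dexamethasone + EPC-EVs 1 (0.116). Hist1h2ah had 3 and 3, 1 and 1, and 75 and 55 counts, a ratio of 32.8 with an interval from 8.91 to 274 (log2 fold change 4.97, edgeR adjusted p = 0.00155), and 12.1% of its words are unique. Hist2h2ab had 8 and 0, 0 and 1, and 21 and 23 counts, a ratio of 22.2 with an interval from 3.79 to 898. Its call (edgeR adjusted p = 0.0350) was lost whichever library was left out, with adjusted p-values of 0.153, 0.0822, 0.181 and 0.207, and also by DESeq2 (0.0667). Hist1h2ae had 8 and 4, 0 and 8, and 160 and 86 counts, with a rise of 3.97 (log2, SE 0.87, edgeR adjusted p = 0.00367), not called by DESeq2 (0.0974). With 0 counts in dexamethasone 1, Hist1h2ae likewise passed the filter through its counts in dexamethasone + EPC-EVs.

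H2B genes encode the partner of H2A in the nucleosome. Hist1h2bc (ENSMUSG00000018102.5, chr13:23684199-23692908) had 129 and 130 counts in control, 105 and 99 in dexamethasone, and 379 and 372 in dexamethasone + EPC-EVs. Per library total, dexamethasone was lowest and dexamethasone + EPC-EVs highest, without overlap. It rose by 0.94 against dexamethasone (log2, SE 0.25, edgeR adjusted p = 0.0102), and the call was lost without dexamethasone 2 (0.0577). Hist1h2be (ENSMUSG00000047246.7, chr13:23583670-23621124) stood at 4.08 and 3.15, 4.51 and 2.98, and 4.23 and 2.49 FPKM. Its groups overlapped, the log2 fold change of -0.11 was not called, and its annotated span overlaps Hist1h1e. Hist1h2bn (ENSMUSG00000095217.1, chr13:21754123-21754503) stood at 24.4 and 19.4, 19.5 and 27.9, and 74.7 and 30.1 FPKM. Its second dexamethasone + EPC-EVs library was barely above dexamethasone 2, and the rise of 1.18 (log2, SE 0.43, edgeR adjusted p = 0.0458) was called in 8 of 18 settings. The call was lost without dexamethasone 1 (0.251), dexamethasone 2 (0.120) or dexamethasone + EPC-EVs 1 (0.588).

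H3 genes encode the histone whose tail carries many of the known chromatin marks. Hist1h3d (ENSMUSG00000099583.2, chr13:23575763-23577011) stood at 24.2 and 17.0 FPKM in control, 17.6 and 13.6 in dexamethasone, and 44.7 and 20.3 in dexamethasone + EPC-EVs. Control overlapped dexamethasone + EPC-EVs, and the rise of 1.10 against dexamethasone (log2, SE 0.33, edgeR adjusted p = 0.0215) was lost without dexamethasone 1 (0.0921), dexamethasone 2 (0.193) or dexamethasone + EPC-EVs 1 (0.348). Hist1h3c (ENSMUSG00000069310.4) stood at 8.55 and 5.55, 17.4 and 6.28, and 145 and 89.2 FPKM. Both dexamethasone + EPC-EVs libraries were several times above the highest of the others, with a rise of 3.35 (log2, SE 0.39, edgeR adjusted p = 9.63e-05) that was called in 18 of 18 settings. Hist1h3i (ENSMUSG00000101972.1, chr13:21782960-21783370) stood at 48.4 and 35.0, 28.5 and 36.3, and 132 and 75.1 FPKM. Its rise was 1.72 (log2, SE 0.30, edgeR adjusted p = 0.000884), 31.4% of its words are unique, and its GC content is 66.9%.

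H4 genes encode the most conserved core histone. Hist2h4 (ENSMUSG00000091405.2) held the most counts of all members summed over the 6 libraries, though fewer than Hist1h1e in each control and dexamethasone library, with 38.2 and 25.9 FPKM in control, 40.1 and 39.0 in dexamethasone, and 152 and 110.2 in dexamethasone + EPC-EVs. Dexamethasone + EPC-EVs was highest without overlap, with a rise of 1.77 (log2, SE 0.17, edgeR adjusted p = 1.52e-05), and all of its 100-base words are unique. Hist1h4d (ENSMUSG00000061482.7) stood at 62.4 and 41.3, 75.4 and 58.1, and 93.9 and 59.2 FPKM. Its groups overlapped and the log2 fold change of 0.24 (SE 0.22) was not called, although without dexamethasone + EPC-EVs 2 it was 0.55 (edgeR adjusted p = 0.0212) and without dexamethasone + EPC-EVs 1 it was -0.10. Hist1h4n (ENSMUSG00000069305.3, chr13:21831767-21832196) stood at 29.2 and 7.23, 48.7 and 30.4, and 146 and 93.7 FPKM. It rose by 1.64 (log2, SE 0.29, edgeR adjusted p = 0.000895), with 19.3% unique words. Hist1h4b had 52 and 40 counts in control, 13 and 29 in dexamethasone, and 715 and 462 in dexamethasone + EPC-EVs. Dexamethasone was lowest, and the rise against it was 3.86 (log2, SE 0.38, edgeR adjusted p = 1.96e-05).

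Dexamethasone + EPC-EVs was also compared with control, a comparison that shares the dexamethasone + EPC-EVs libraries with the previous one and is not independent of it. Of 57 members that passed the filter, 28 were called higher and 0 lower by edgeR, beside 19.1% and 17.2% of all genes tested. At an unadjusted p under 0.05 there were 34 higher and 1 lower, DESeq2 called 29 higher and 0 lower, and limma 30 higher and 0 lower. The median was 1.73 against 0.02 over all genes tested. With no filter, 33 of 65 members with counts were called higher and 0 lower, beside 15.1% and 11.9% of all genes, with a median of 1.87 against 0.17, so that the median of all genes itself lay above 0 by more than 0.1. On CPM the groups did not overlap for 45 members higher and 4 lower, against 31.3% and 25.3% of all genes. Fewer members were called without dexamethasone + EPC-EVs 1, and the share of all genes called in that fit is not given here.

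Among the called members that passed the filter, the largest rises against control were those of Hist2h3b, Hist1h3c, Hist1h2bk, Hist2h2aa2 and Hist4h4. Hist2h3b, Hist1h2bk and Hist2h2aa2 had at most 5 counts in each control library, and Hist4h4 had 0 in control 2. These genes passed the filter through their counts in dexamethasone + EPC-EVs, and their place among the largest rises rests on this. Hist2h3b had 1 and 0 counts in control, 5 and 2 in dexamethasone, and 52 and 29 in dexamethasone + EPC-EVs, a ratio of 35.1 to control with a counting interval from 6.12 to 1402. Its call (log2 fold change 4.94, edgeR adjusted p = 0.0248) was lost without dexamethasone + EPC-EVs 1 (0.351) or 2 (0.136). Hist1h3c, given above on FPKM, rose by 4.01 (log2, SE 0.37, edgeR adjusted p = 0.000313). Hist1h2bk had 5 and 0, 28 and 0, and 143 and 36 counts, and its rise of 3.94 (edgeR adjusted p = 0.0321) was lost without control 2 (0.0671) or dexamethasone + EPC-EVs 1 (0.507). Hist2h2aa2, none of whose words are unique, had 5 and 4, 12 and 4, and 226 and 72 counts, with a rise of 3.80 (edgeR adjusted p = 0.00662) that was lost without dexamethasone + EPC-EVs 1 (0.260). Hist4h4, the only member on chromosome 6, had 12 and 0, 10 and 25, and 232 and 129 counts and rose by 3.72 (log2, SE 0.94, edgeR adjusted p = 0.0157). Hist1h1e was not called against control, with a log2 fold change of -0.51 (SE 0.22), but was called without control 2 (edgeR adjusted p = 0.0222).

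The counts bear in several ways on the capture of RNAs without poly(A) tails. Members annotated to end near the stem-loop held 0.0118% and 0.00604% of counts in control, 0.0126% and 0.00940% in dexamethasone, and 0.0613% and 0.0334% in dexamethasone + EPC-EVs. Members annotated far past it held 0.0498% and 0.0318%, 0.0505% and 0.0498%, and 0.114% and 0.0800%. Both forms were highest in dexamethasone + EPC-EVs, and the mean share over that in dexamethasone was 4.31-fold for the near form, 1.94-fold for the far form and 2.05-fold for members without a loop in their annotation. Members with longer annotations thus held most histone counts in every library, while the near form took a larger part of them with EPC-EVs. With no filter, 15 of 22 members of the near form were called higher (median 2.05), 14 higher and 1 lower of 21 of the far form (median 1.65), and 11 of 23 without a loop (median 1.61), beside 15.0% higher and 12.2% lower of all genes. Of the members that passed the filter, 14 of 19 of the near form were called higher (median 1.74), 13 higher and 1 lower of 20 of the far form (median 1.58), and 9 of 18 without a loop (median 1.65), beside 20.9% and 18.9%. With a trend on length and GC removed from these, calls were 10 of 19 for the near form (median 0.90), 11 higher and 1 lower of 20 for the far form (median 1.43), and 3 higher and 2 lower of 18 without a loop (median 0.52), beside 16.0% and 15.8%, so that the medians of the near and far forms changed order. The difference between forms was not tested, and gene counts do not show where a transcript ended.

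Members whose human counterparts are known to give polyadenylated mRNAs were listed as Hist1h1c, Hist1h2ac, Hist1h2bc, Hist1h2bk, Hist1h4h and Hist2h2be. Their summed share was 0.00769% and 0.00690% in control, 0.00898% and 0.00704% in dexamethasone, and 0.0318% and 0.0247% in dexamethasone + EPC-EVs, with Hist1h1c the most abundant. Of the 6, 4 were called higher against dexamethasone and 0 lower by edgeR, DESeq2 and limma alike, with 4 higher and 0 lower at an unadjusted p under 0.05, beside edgeR calls of 20.9% higher and 18.9% lower among all genes tested. Hist1h4h had 13 and 14, 17 and 10, and 336 and 204 counts and rose by 3.38 (log2, SE 0.45, edgeR adjusted p = 0.000152). Hist1h2ac stood at 1.71 and 0.939, 2.63 and 2.70, and 7.80 and 5.78 FPKM and rose by 1.39 (log2, SE 0.35, edgeR adjusted p = 0.00837), a call lost without dexamethasone + EPC-EVs 1 (0.0788). Hist1h2bk was not called, with a log2 fold change of 1.74 (SE 1.22), but was called without dexamethasone 1 (edgeR adjusted p = 0.0261). Hist2h2be, a gene known for polyadenylated mRNA in non-dividing cells, had 41 and 56, 36 and 7, and 55 and 45 counts and was not called (log2 fold change 0.28). The testis histone genes, silent in most somatic cells, had at most 1 count in each control and dexamethasone library. Hist1h1t had 1, 0, 0, 0, 15 and 9 counts, so it lay above the floor of 3 counts in dexamethasone + EPC-EVs. Hist1h2aa had 1 count in dexamethasone 1 alone, neither passed the filter, and Hist1h2ba was not analysed here.

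Other RNAs that lack a poly(A) tail were looked for in the same table. None of its genes belonged to the listed small nuclear, small nucleolar, 7SK or signal recognition particle RNAs, and its annotated biotypes included no small or ribosomal RNA class, so the capture of such RNAs could not be compared. Malat1 and Neat1 are long nuclear RNAs with a 3′ end cut by RNase P, and Malat1 and the long form of Neat1 end without a poly(A) tail. Malat1 had 4824 and 7017 counts in control, 3848 and 4505 in dexamethasone, and 33378 and 32252 in dexamethasone + EPC-EVs. Neat1 had 403 and 652, 341 and 432, and 4516 and 4457 counts. Both were highest in dexamethasone + EPC-EVs without overlap, and rose against dexamethasone by 2.03 (log2, SE 0.12, edgeR adjusted p = 7.99e-07) and 2.60 (log2, SE 0.15, edgeR adjusted p = 7.99e-07). Gm26917 and Gm42418, chosen after their values were seen, are neighbouring genes at chr17:39843013-39846341 and chr17:39846958-39848788, a locus to which ribosomal RNA reads are known to map. Gm26917 took 0.606% and 0.252% of counts in control, 1.14% and 0.788% in dexamethasone, and 5.88% and 6.69% in dexamethasone + EPC-EVs. Gm42418 took 0.260% and 0.395%, 0.0317% and 0.0777%, and 0.261% and 0.258%. Only Gm26917 had both dexamethasone + EPC-EVs libraries above all others. Whether the groups differed in library preparation was not tested and cannot be told apart from the treatment, since each treatment is 1 pair of libraries.

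GC content moved with the groups as well. Non-member genes were divided into 5 equal groups by GC content. In the group with the highest GC content (at least 55.6%), the median log2 fold change against dexamethasone was 0.72, with 45.7% called higher and 4.71% lower. In the group with the lowest it was -0.72, with 3.08% called higher and 40.2% lower. The members, with a median GC content of 58.3%, lie mostly in the range of the highest group. When a trend on length and GC was removed from the counts, 24 members were called higher than in dexamethasone and 3 lower (median 1.05), beside 16.0% and 15.8% of all genes tested. Against control the calls were 14 higher and 3 lower (median 0.65), beside 12.8% and 14.7%, where the fit without the trend gave 28 higher and 0 lower. Hist1h2bn went from 1.18 to -0.13 and Hist1h3i from 1.72 to 0.02 against dexamethasone under this correction, and Hist1h3i from 1.28 to -0.81 against control. How much of the histone difference goes with GC content beyond this correction was not tested.

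Most replacement histones are made outside S phase from polyadenylated mRNAs, although H2afx also carries a stem-loop as given above, and 10 of the 11 listed genes were in the table. Their summed share was 0.119% and 0.130% in control, 0.103% and 0.0951% in dexamethasone, and 0.140% and 0.126% in dexamethasone + EPC-EVs, so that control and dexamethasone + EPC-EVs overlapped. Against dexamethasone 5 of 10 were called higher and 0 lower by edgeR, DESeq2 and limma, and 5 higher and 0 lower at an unadjusted p under 0.05, with a median of 0.49. Of all genes tested edgeR called 20.9% higher and 18.9% lower, and with a trend on length and GC removed the list had 4 higher and 1 lower, beside 16.0% and 15.8%. H2afz, the H2A variant of promoters, had 106 and 102, 186 and 206, and 1569 and 1467 counts and rose by 2.01 (log2, SE 0.17, edgeR adjusted p = 7.10e-06). H2afx, the variant phosphorylated at DNA breaks, had 62 and 27, 101 and 126, and 1060 and 705 counts and rose by 2.02 (log2, SE 0.25, edgeR adjusted p = 9.71e-05). H3f3a, which encodes the same replacement H3 protein as H3f3b, rose by 2.00 (log2, SE 0.18, edgeR adjusted p = 9.79e-06), while H3f3b, with 283 and 332, 189 and 167, and 188 and 165 FPKM, showed 0.03 (SE 0.12, not called), a value that turned to -0.02 with no scaling factor. H1f0, the linker histone of resting cells, rose by 0.62 (log2, SE 0.12, edgeR adjusted p = 0.00209), a call lost without dexamethasone 2 (0.0544).

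Of the 18 listed genes for histone mRNA 3′ end processing and decay 17 were in the table, and the U7 RNA gene Rnu7 was not analysed here. Calls against dexamethasone were 4 higher and 4 lower (median 0.20), beside 20.9% and 18.9% of all genes tested, and 1 higher and 2 lower with a trend on length and GC removed (16.0% and 15.8% of all genes). Slbp, the stem-loop binding protein, named after its values were seen, had 251 and 246 counts in control, 255 and 255 in dexamethasone, and 443 and 352 in dexamethasone + EPC-EVs, and was not called (log2 fold change -0.30). Sympk, the scaffold of the cleavage complex, rose by 0.77 (log2, SE 0.15, edgeR adjusted p = 0.00153), Srrt by 0.66 (SE 0.14) and Lsm10, a protein of the U7 particle, by 1.86 (SE 0.50). The call of Srrt was lost without dexamethasone 1, and that of Lsm10 without dexamethasone 2 (edgeR adjusted p = 0.0697). Zcchc11, which adds uridines to histone mRNA during decay, fell by 1.72 on the log2 scale (SE 0.21, edgeR adjusted p = 9.45e-05), and its relative Zcchc6 showed -0.46 and was not called, although it was without dexamethasone 1 (0.0340) or dexamethasone + EPC-EVs 1 (0.0248). Zfp473, a zinc finger protein of this pathway, was not called (log2 fold change 0.37). Among the 16 histone chaperones, which carry histones to DNA, calls were 4 higher and 4 lower (median 0.05), and 2 higher and 4 lower with that trend removed. Atrx, a chaperone and remodeller for replacement H3, fell by 1.69 on the log2 scale (SE 0.12, edgeR adjusted p = 2.63e-06), Npm1 fell by 1.63 (SE 0.14) and Nap1l1 fell by 1.41 (SE 0.13). Ipo4, an importin that carries H3 and H4 into the nucleus, had 46 and 6, 45 and 96, and 340 and 327 counts and was called higher (edgeR adjusted p = 0.0115), a call lost without dexamethasone 1 (0.0681).

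Genes for DNA replication and mitosis gave the cell cycle setting of these counts. Against dexamethasone, 14 of 42 replication genes were called higher and 3 lower (median 0.41), beside 20.9% and 18.9% of all genes tested. Fewer of them were called without dexamethasone 2. Their summed share was 0.139% and 0.128% in control, 0.146% and 0.145% in dexamethasone, and 0.207% and 0.156% in dexamethasone + EPC-EVs. Fen1, the flap endonuclease, had 0 and 0, 8 and 1, and 97 and 76 counts and rose by 3.30 (log2, SE 0.79, edgeR adjusted p = 0.00606). With 1 count in dexamethasone 2, Fen1 passed the filter through its counts in dexamethasone + EPC-EVs. Its place among the largest changes of the list rests on this. Rpa2, a single-strand binding subunit, rose by 2.13 (SE 0.48), Pold1, the catalytic subunit of polymerase delta, rose by 1.58 (SE 0.29), and Rfc1, the large clamp loader subunit, fell by 0.54 (SE 0.19, edgeR adjusted p = 0.0379), a call lost without dexamethasone 1 (0.0766), dexamethasone 2 (0.288) or dexamethasone + EPC-EVs 2 (0.196). With Rfc1, the most counted genes of this list were Rrm1 and Dnmt1, which were not called. Rrm1, of ribonucleotide reductase, showed 0.36 (called without dexamethasone + EPC-EVs 2, edgeR adjusted p = 0.0180) and Dnmt1, the maintenance methyltransferase, 0.16. Calls among the 25 mitosis genes were 2 higher and 9 lower (median -0.63), beside 20.9% and 18.9% of all genes tested. They were 4 higher and 14 lower with no filter, and 2 higher and 4 lower (median -0.24) with a trend on length and GC removed, beside 15.0% and 12.2%, and 16.0% and 15.8%, of all genes. Their summed share was 0.323% and 0.384% in control, 0.287% and 0.327% in dexamethasone, and 0.206% and 0.120% in dexamethasone + EPC-EVs. Fewer mitosis genes were called without dexamethasone 1 or without dexamethasone 2. Mki67, the proliferation marker, had 6180 and 6742, 5895 and 6822, and 7053 and 3594 counts and fell by 1.19 on the log2 scale (SE 0.31, edgeR adjusted p = 0.0242), and Top2a, the mitotic topoisomerase, fell by 1.05 (SE 0.21). Both calls were lost without dexamethasone 2 (0.0680 and 0.0639), while the kinetochore genes Cenpf and Cenpe fell by 1.64 (SE 0.16) and 1.45 (SE 0.15). Among the CDK inhibitors, 4 of 5 in the table (7 listed) were tested, 1 was called higher and 2 lower: Cdkn2c rose by 1.63 (SE 0.27), Cdkn1a fell by 1.38 (SE 0.18) and Cdkn1b fell by 0.66 (SE 0.14). Replication and mitosis genes thus differed in the direction of most calls, and a difference between these lists was not tested.

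Markers of other cells were few. Of 9 endothelial and progenitor markers, 7 were in the table (Kdr and Tie1 were not analysed here), and they held 0.0417% and 0.0370% of counts in control, 0.0377% and 0.0385% in dexamethasone, and 0.0285% and 0.0234% in dexamethasone + EPC-EVs. Nearly all of this was Cd34, at 56.5 and 50.2, 51.3 and 52.3, and 38.9 and 31.7 FPKM, which fell by 0.51 on the log2 scale (SE 0.13, edgeR adjusted p = 0.00962), a call lost without dexamethasone 1 (0.0859) or dexamethasone 2 (0.106). Cdh5, Tek, Emcn and Prom1 had at most 8 counts in any library, with 0 in both dexamethasone + EPC-EVs libraries except for 6 counts of Emcn. Vwf and Pecam1 were not called (log2 fold changes -0.77 and 0.70). Of 7 blood cell markers, 5 were in the table and 0 of 3 tested were called by edgeR, DESeq2 or limma, with 1 higher at an unadjusted p under 0.05. Their summed share was 0.00121% and 0.00115%, 0.00181% and 0.00196%, and 0.00187% and 0.00523%, with Lyz2 the most abundant on FPKM (log2 fold change 0.18). Csf1r, the macrophage receptor, had 12 and 0, 20 and 8, and 56 and 471 counts, so that 1 library held most of them, and it was called without dexamethasone + EPC-EVs 1 (edgeR adjusted p = 3.51e-07). Cd68 showed -0.88 and was not called. Of 6 adipocyte markers, 4 were in the table, and their summed share was at most 0.00103%. Fabp4, the most abundant of them, had 44 and 14, 65 and 15, and 9 and 2 counts and fell by 3.76 on the log2 scale (edgeR adjusted p = 0.0107), a call lost without dexamethasone 1 (0.259) and by limma, while Pparg and Plin1 had 0 counts in dexamethasone + EPC-EVs.

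Of the osteoblast markers, 2 of 8 tested were called higher and 2 lower against dexamethasone, beside 20.9% and 18.9% of all genes tested. Col1a2 and Col1a1, the chains of type I collagen, rose by 1.89 (log2, SE 0.12) and 1.51 (SE 0.14), while Spp1 fell by 1.06 (SE 0.14) and Phex, a phosphate-regulating endopeptidase, fell by 1.92 (SE 0.41). The most counted mitochondrially encoded genes fell in dexamethasone + EPC-EVs against dexamethasone, mt-Co1 by 2.70 (SE 0.16), mt-Nd5 by 4.59 (SE 0.26) and mt-Nd1 by 4.15 (SE 0.19). In that list mt-Nd2 fell by 6.01 (SE 0.49) and mt-Nd6 fell by 5.32 (SE 0.22), the largest falls, and mt-Atp8 had 7 and 8, 5 and 9, and 0 and 0 counts and was not tested against dexamethasone. Of that list, 10 of 11 tested were called lower and 0 higher by edgeR, with 0 higher by DESeq2, by limma and at an unadjusted p under 0.05, and a median of -3.94. The part of any of these lists in the histone counts was not tested. In dexamethasone against control, 2 of 140 tested genes from all these lists were called, both mitochondrially encoded and lower (mt-Cytb and mt-Nd2). DESeq2 called 10 of the 140, all lower and 7 of them mitochondrially encoded, beside 134 of 12879 genes. With no filter 13 of 155 were called, all lower and 8 of them mitochondrially encoded, beside 1.26% of all genes. Fewer mitochondrially encoded genes were called without dexamethasone 1 or 2, and more without control 1 or control 2. For the other 129 genes the edgeR count was 0, with 8 higher and 13 lower at an unadjusted p under 0.05, 3 lower by DESeq2 and 0 by limma. Without control 1, genes were also called in the mitosis list and in 6 further lists. The share of all genes called in these left-out fits is not given here. In dexamethasone + EPC-EVs against control, 34 of 144 were called higher and 41 lower, beside 19.1% and 17.2% of all genes tested.

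These values describe 2 libraries per group of 1 cell line, with 1 dose of each agent and 1 time point, so neither a dose response nor a time course can be described. Without a group given EPC-EVs alone, an action of the vesicles themselves and an action on the response to dexamethasone cannot be told apart. Group, depth, mitochondrial share and GC trend differ together between the libraries, and their contributions cannot be told apart. Reads shared between members, overlapping genes and unknown strand counting limit the values of single members. Whether the counted RNAs carried poly(A) tails was not tested, and histone protein and DNA synthesis were not analysed here.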

How the data were processed

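The authors removed reads with adapters, undetermined bases or low quality from libraries made with a NEBNext Ultra RNA kit, and aligned the rest to GRCm38 with HISAT2 v2.1.0 set to reverse strandness. The gene count values were made by the authors with HTSeq 0.6.1 and deposited without normalization, 1 column per library. The deposited FPKM values of genes are described by the authors as sums over transcripts. Within each of the 21686 genes they were proportional to the count divided by the library total. Counts were compared here with edgeR 4.0.16 in R 4.3.3, using TMM factors, filterByExpr within each comparison, a robust quasi-likelihood fit and Benjamini-Hochberg adjustment over all genes tested. DESeq2 1.42.0 on the counts and limma 3.58.1 on log2(FPKM + 1) served as alternatives. Stem-loops, GC content and overlaps were read from GENCODE vM21, and promoters from RefSeq (GRCm38.p6).

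The members, the gene lists and the rule for naming genes were chosen with earlier results of these data known. Lists covered replacement histones, histone mRNA 3′ processing and decay, histone chaperones, DNA replication, mitosis, CDK inhibitors, long nuclear RNAs, polyadenylated forms, testis histones, other RNAs without a tail, mitochondrially encoded genes, and markers of osteoblasts, endothelial and progenitor cells, blood cells and adipocytes. Named are the 3 members of each class with the highest mean CPM, in each comparison the 5 called members with the largest rise and the 5 with the largest fall, the members with polyadenylated forms and the testis histones. Of each other list, the 3 genes with the highest mean CPM and the 2 called genes with the largest change in each comparison are named. Hist1h1a, Hist1h1b, Slbp, Runx2, Alpl, Ibsp, Gm26917, Gm42418 and the markers given only by counts were named after their values were seen. Levels between genes were compared on FPKM, except where counts or shares of counts are named.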

Additional observations from a re-analysis of the deposited data

How the results depend on the processing

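Results were recalculated with alternative choices of processing, and the cause of any difference was not tested. The removal of a trend on length and GC moved the most values. The median over the members tested became -0.19 for dexamethasone against control, 1.05 for dexamethasone + EPC-EVs against dexamethasone and 0.65 for dexamethasone + EPC-EVs against control. In the last comparison 17 members were then called, beside 12.8% called higher and 14.7% lower of all genes tested. An adjusted p under 0.01 left 13 called members in that comparison, and the share of all genes called at that threshold is not given here. The histone share in dexamethasone was 0.0808% when totals excluded the mitochondrially encoded genes and 0.0697% without Hist2h4.

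Log2 fold changes of some members changed sign. In dexamethasone against control, Hist1h2ab became -0.00820 with a replicate block and -0.35 with the length and GC trend removed. Hist1h2be became 0.0498 with no scaling factor, 0.0290 by limma and 0.12 with the length and GC trend removed. Hist1h2bn became -0.36 with the length and GC trend removed. In dexamethasone + EPC-EVs against dexamethasone, Hist1h2ak became -0.0189 by limma and -1.77 with the length and GC trend removed. With that same trend removed Hist1h2be became 0.32, Hist1h2bn -0.13 and Dnmt1 -0.10. H3f3b became -0.0156 with no scaling factor, -0.00894 with a minimum of 5 CPM and -0.0152 by limma. It became -0.0297 with the length trend alone removed and -0.11 with the length and GC trend removed. In dexamethasone + EPC-EVs against control, Hist1h2ak became 0.0145 with no filter. With the length and GC trend removed Hist1h2be became 0.43, Hist1h2bn -0.38 and Hist1h3i -0.81.

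Leaving out each library in turn leaves a group with 1 sample, which is then assumed to vary like the other group. For dexamethasone against control, called members ranged from 0 to 7 and the median from -0.16 to 0.52. Ranges of log2 fold changes were -0.28 to 1.16 for Hist1h1d, -0.32 to 0.15 for Hist1h2ak, -1.09 to 0.80 for Hist1h2ab, -0.35 to 0.24 for Hist1h2be, -0.24 to 0.28 for Hist1h2bn, -0.23 to 1.22 for Hist1h3c and -0.73 to 0.0142 for Hist1h4h. The ratio of histone shares ranged from 0.951 to 1.48, an alternative added after the data were seen.

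For dexamethasone + EPC-EVs against dexamethasone, called members ranged from 22 to 38. Ranges were -0.31 to 0.36 for Hist1h2ak, -0.52 to 0.23 for Hist1h2be, -0.10 to 0.55 for Hist1h4d, -0.45 to 1.90 for Hist2h2be, -0.0492 to 0.13 for H3f3b, -0.10 to 0.76 for Zfp473, -0.28 to 6.23 for Pecam1 and -0.0501 to 0.48 for Lyz2. For dexamethasone + EPC-EVs against control, called members ranged from 13 to 35 and the median from 1.38 to 2.48, with -0.39 to 0.27 for Hist1h2ak, -0.54 to 0.21 for Hist1h2be and -0.0203 to 1.10 for Hist1h3d.

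With the replicate number as a block, 36 members were called in dexamethasone + EPC-EVs against dexamethasone, 27 against control, and 0 in dexamethasone against control. The share of all genes called in these block fits is not given here, so the counts cannot be set beside it. Correlations of the paired differences were -0.000635, 0.0167 and 0.0751 in the same order of comparisons. Over all genes tested, no broad deviation shared by libraries of the same number was seen. Whether libraries of the same number shared a culture or batch was not tested.

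Of the log2 fold changes of named genes, 1831 kept their direction and their side of the threshold, 48 changed sign, 113 were no longer called and 36 were newly called. Of the list counts, 621 lay within 1.5 times the reported count and 93 did not.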
